A study of Mus musculus with 45 samples.

Results

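The expression of 10 genes of the retinoic acid pathway was followed by RNA-seq while male mouse embryonic stem cells (ESCs) left naive pluripotency. They were taken, of 35372 genes counted, by their symbol: the retinol receptor Stra6, the retinal reductase Dhrs3, the retinal dehydrogenases Aldh1a2 and Aldh1a3, the cellular binding proteins Crabp1 and Crabp2, the degrading enzyme Cyp26a1, the receptors Rarb and Rarg, and the meiotic gene Stra8. Levels are CPM, the usual per-million scale (the count of a gene over the total of its library). The series holds 45 libraries of wild-type E14tg2a ESCs, a male line of 129/Ola background, with 23 from cells kept in 2iL and 22 from cells kept in SL. 2iL is serum-free N2B27 medium with the inhibitors CHIR99021 and PD0325901 and the cytokine LIF, and SL is serum with LIF.

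From each medium the cells entered 3 courses. In the EB course they formed embryoid bodies in suspension, in serum without LIF. In the EpiSC course they grew as a monolayer in N2B27 with Fgf2 and Activin A (FA), and in the Neural course in N2B27 alone (serum-free). N2B27 holds the N2 and B27 supplements. The paper lists B27 by its maker and catalogue number and N2 as homemade, and does not state the retinoid content of any medium. EBs and monolayers differ in both medium and suspension, and the parts of these cannot be told apart. Libraries were made at days 1, 1.5, 2, 2.5, 3, 5 and 7 and, for 2iL, at day 0 of each course. SL had 1 library at day 0 for all courses. The EpiSC course from 2iL lacks day 5 in what follows (not analysed here). Each medium, course and day is a single library of 1 cell line, so media, days and courses stood as the replicates, and the p-values measure the spread over these, which may be technical.

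Retinoic acid is made from retinol in 2 oxidations, the first reversible, and is bound in the cell by Crabp proteins, destroyed by Cyp26 enzymes, and sensed in the nucleus by retinoic acid receptors (Rar) paired with retinoid X receptors. The receptors sit on paired half-sites in DNA and raise transcription of genes such as Rarb, Cyp26a1, Stra8 and the early Hox genes when retinoic acid is bound. In embryos and in ESCs the signal promotes differentiation and patterns the hindbrain and spinal cord, and in the gonad it starts meiosis.

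In the RefSeq promoter table for GRCm38.p6, which runs from 250 bases before to 50 bases after each start, 8 of the 10 genes had 14 promoters. The receptor half-site was searched as AGGTCA, with AGTTCA as one accepted spelling, GGGTCA as another, and GGTTCA as the last. Direct repeats of these with 5 bases between them (DR5), on either strand, were present in 32 of 32851 promoters (0.0974%), and 2 of these 32 belonged to the 10 genes, Rarb and Cyp26a1. The windows are printed because these letters are the arrangement known as a retinoic acid response element, with the half-sites in capitals and the sequence 5′ to 3′ on the strand of the gene.
Rarb, chr14:16575483-16575559, minus strand: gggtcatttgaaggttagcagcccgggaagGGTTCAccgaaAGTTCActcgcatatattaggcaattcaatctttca
Cyp26a1, chr19:37697746-37697807, plus strand: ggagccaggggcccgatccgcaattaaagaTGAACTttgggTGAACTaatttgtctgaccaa
In Rarb the repeat lay on the strand of the gene with its first base at -53 from the start, and in Cyp26a1 on the opposite strand with its first base at -32. Repeats with 1 base (73 promoters, 0.222%) or 2 bases between the half-sites (88 promoters, 0.268%) were in none of the 14 promoters. The windows are short and a match says only that the letters are there. Rarb and Cyp26a1, which share the repeat, had different patterns across the libraries, as described next.

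Cyp26a1 lies on chromosome 19 (37697798 to 37701536), Stra6 on chromosome 9 (58063788 to 58153996), Crabp1 on chromosome 9 (54764748 to 54773110), Crabp2 on chromosome 3 (87948666 to 87953376) and Dhrs3 on chromosome 4 (144892827 to 144928209), all on the plus strand of GRCm38, and Rarg on the minus strand of chromosome 15 (102234938 to 102257517). Counts are per gene over its exons.

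Library totals ran from 13093226 to 39804240 counts, with a median of 18222720, and 3 counts were worth 0.165 CPM at the median depth. The 8 EB libraries from 2iL were deeper (median 34490692) than the other 37 (median 17297450), of which the EB library of day 2 from SL held 37071102. Each course comparison was also fitted in each medium alone. In the 2iL libraries depth goes with the EB course, so that fit cannot tell the 2 apart. Summed over 6 naive markers, 2iL cells at day 0 stood at 3930 to 4190 CPM and the SL library at 2250 CPM, and the days 5 and 7 libraries of all courses at or below 301 CPM. At days 5 and 7 all 6 neural markers were lower in the EB than in the Neural course, and 6 of 7 streak and mesoderm markers were higher. These are bulk libraries, in which fewer cells with a transcript and less transcript per cell cannot be told apart.

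In the first 2 days the EB course stood apart from both monolayer courses. Among the 10 genes, 5 were lower in EBs than in the Neural course at days 1 to 2 and none was higher, where 31.6% of all genes tested passed in either direction and 14.3% were lower. Against the EpiSC course 4 were lower and none higher (background 25.3% in either direction, 11.4% lower). Stra8, Rarb, Stra6 and Dhrs3 were lower in both. Cell type markers differed between these courses as well. The 6 neural markers summed to 32.8 to 52.4 CPM in EBs, 66.7 to 107 CPM in the EpiSC course and 70.7 to 120 CPM in the Neural course, with 3 of 6 lower in EBs than in the Neural course. The 4 epiblast markers summed to 1120 to 2950 CPM in EBs, 394 to 1130 CPM in the EpiSC course and 394 to 971 CPM in the Neural course, and all 4 were higher in EBs than in either. Their part in the differences below was not tested.

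Stra8, a gene induced by retinoic acid and needed for meiotic entry, had the largest differences among the 10 genes at days 1 to 2, and at days 2.5 and 3 in both comparisons with EBs. At day 0 it stood at 19.2, 24.15 and 17.9 CPM in 2iL and 12.3 CPM in SL. In the EB course at days 1 to 2 it ran from 0.127 to 1.31 CPM (median 0.379), in the EpiSC course from 17.8 to 64.4 CPM (median 45.5), and in the Neural course from 58.9 to 99.5 CPM (median 76.9), with 6 libraries each. The EB libraries thus lay below every library of the other courses at days 1 to 2 and below all 4 of day 0, whereas the Neural course from 2iL held the highest level of the series, 99.5 CPM, at day 1.5. The difference on the log2 scale was -7.39 ± 0.36 (SE; adjusted p = 6.4e-13) for EB against Neural and -6.30 ± 0.35 (adjusted p = 1.6e-11) for EB against EpiSC. In matched libraries of 1 medium and day the Neural level was 65.6 to 487 times the EB level, in 6 of 6 pairs. The 2iL libraries alone gave -7.38 (adjusted p = 7.9e-06) and the SL libraries alone -7.34 (adjusted p = 2.9e-06) for EB against Neural. The gene lies on the plus strand of chromosome 6, 34920163 to 34939344 (GRCm38).

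At days 2.5 and 3 Stra8 was at 0.161 and 0.236 CPM in EBs from 2iL and at 0.289 and 0.0992 CPM in EBs from SL. In the Neural course it was still at 31.0 and 15.98 CPM from 2iL and 32.1 and 25.9 CPM from SL, and in the EpiSC course at 9.24 and 12.6 CPM from 2iL and 6.49 and 2.35 CPM from SL. The 3 courses did not overlap, and Stra8 was the only one of the 10 genes past the threshold in all 3 comparisons of that stage. The differences were -7.24 ± 0.50 for EB against Neural (adjusted p = 1.7e-09), -5.27 ± 0.52 for EB against EpiSC (adjusted p = 3.3e-07) and -1.97 ± 0.34 for EpiSC against Neural (adjusted p = 0.00062, but 0.12 in the 2iL libraries alone). By days 5 and 7 it had fallen to between 0.404 and 4.83 CPM in both monolayer courses, and the EB libraries held 0.0251 to 0.272 CPM, the lowest of them a single read. EpiSC against Neural at days 1 to 2 (-1.10 ± 0.25, adjusted p = 0.021) was less secure, as it was lost under 7 of 13 alternatives, with adjusted p up to 0.38.

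**Figure D1:**
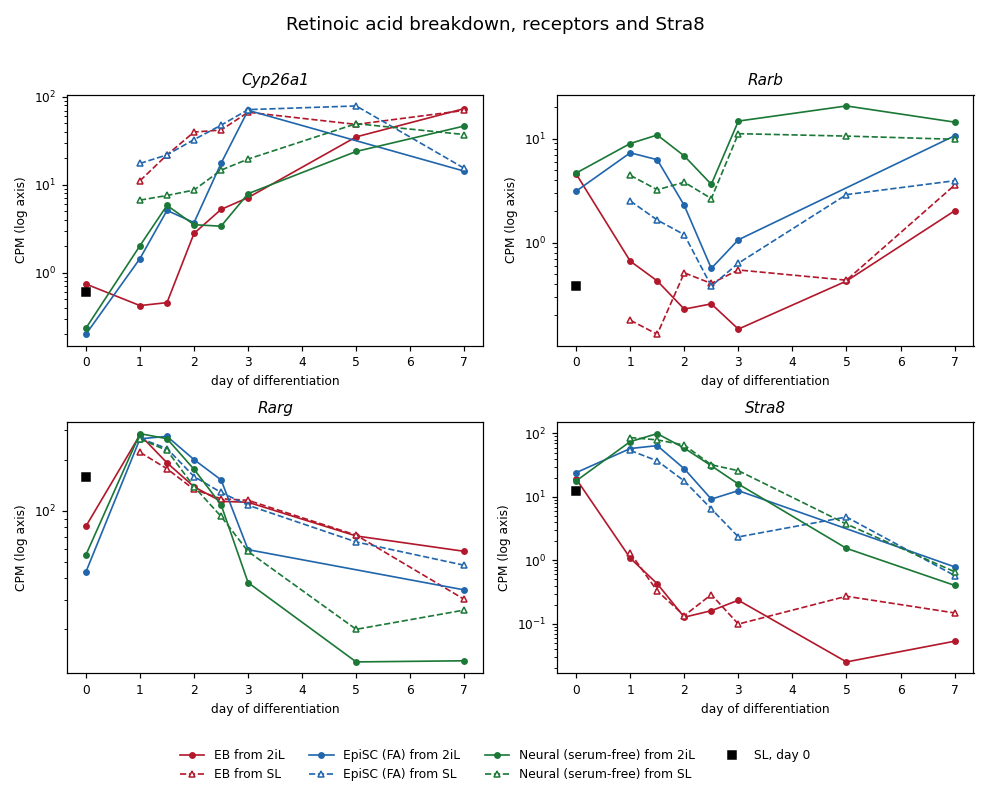
CPM on a log axis against day of differentiation for Cyp26a1, Rarb, Rarg and Stra8, 1 point per library. Colours mark the course, filled circles with solid lines 2iL and open triangles with dashed lines SL, and the black square the SL library of day 0. The EB lines of Stra8 lie at or below 1.31 CPM from day 1 on.

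Rarb, the receptor that is itself a target of retinoic acid, was lower in EBs than in the Neural course at all stages. Unlike Stra8, it stayed high in the late Neural course. It was at 4.58, 3.13 and 4.67 CPM in 2iL at day 0 and at 0.384 CPM in SL. At days 1 to 2 the EB libraries held 0.132 to 0.664 CPM (median 0.329), the EpiSC libraries 1.19 to 7.31 CPM (median 2.40) and the Neural libraries 3.22 to 10.9 CPM (median 5.63). EBs overlapped with neither of the other courses, which overlapped with each other. The difference of EB was -4.18 ± 0.47 against Neural (adjusted p = 4.5e-07) and -3.09 ± 0.47 against EpiSC (adjusted p = 4.7e-05).

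In the EpiSC course Rarb was at 0.566 and 1.06 CPM from 2iL and 0.382 and 0.634 CPM from SL at days 2.5 and 3, overlapping with the EBs (0.147 to 0.546 CPM). In the Neural course it stood at 3.64 and 14.8 CPM from 2iL and 2.65 and 11.2 CPM from SL. EpiSC was then lower than Neural by -3.48 ± 0.55 (adjusted p = 0.00029), while EB and EpiSC did not differ past the threshold (-1.06 ± 0.67, adjusted p = 0.25). At days 5 and 7 the Neural libraries held 20.6 and 14.4 CPM from 2iL and 10.6 and 9.87 CPM from SL, and EBs 0.427 and 2.02 CPM from 2iL and 0.435 and 3.57 CPM from SL, a difference of -3.47 ± 0.52 (adjusted p = 8.5e-06). The late EpiSC libraries held 10.7 CPM (2iL day 7), 2.90 and 3.94 CPM (SL days 5 and 7). EB against EpiSC was then -1.88 ± 0.53 (adjusted p = 0.013, 0.28 in the SL libraries alone). Within EBs Rarb rose from days 1 to 2 to days 5 and 7 by 1.90 ± 0.51 (adjusted p = 0.0016), with the higher levels at day 7. Rarb spans chromosome 14, 16430839 to 16819156 on the minus strand, with 2 genes on the opposite strand inside it, and the counting was strand-specific.

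Rarg, the receptor gene with the higher level, changed with time in every course. On a per-length scale its median over the 45 libraries was 27.1 CPM per kilobase, against 0.504 for Rarb. In 2iL it rose from 81.2, 43.6 and 55.0 CPM at day 0 to 281, 266 and 286 CPM at day 1 in the EB, EpiSC and Neural courses (2.24 ± 0.48 on the log2 scale, adjusted p = 0.0024), and from SL it stood at 222, 268 and 266 CPM at day 1. With Crabp2 it was 1 of the 2 genes that passed at day 1, where 28.6% of all genes did. Without the EpiSC libraries neither passed (adjusted p = 0.085 for Rarg and 0.052 for Crabp2).

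Rarg then declined in all courses. It was at 12.8 and 13.1 CPM (2iL) and 20.01 and 26 CPM (SL) in the Neural course at days 5 and 7, and at 71.2, 57.7, 71.9 and 30.1 CPM in EBs, without overlap. The EB level was higher by 1.61 ± 0.25 (adjusted p = 1.2e-05) and the EpiSC level, 34.2 to 65.6 CPM, by 1.36 ± 0.26 (adjusted p = 0.00027). The decline from days 1 to 2 to days 5 and 7 was -1.84 ± 0.31 in EBs, -2.34 ± 0.36 in the EpiSC course and -3.80 ± 0.35 in the Neural course, with adjusted p at most 6.2e-06.

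Stra6, the membrane receptor that takes up retinol from its plasma carrier, was highest in the Neural course. At days 1 to 2 it held 0.526 to 1.25 CPM in EBs (median 0.587), 1.32 to 8.51 CPM in the EpiSC course (median 3.05) and 2.63 to 28.3 CPM in the Neural course (median 4.89). EBs lay below both without overlap, by -3.31 ± 0.42 against Neural (adjusted p = 2.5e-06) and -2.27 ± 0.43 against EpiSC (adjusted p = 0.00046), though in the SL libraries alone the second was -1.34 with adjusted p = 0.083. At day 3 it was at 56.2 CPM in the Neural course from 2iL and at 18.0 CPM in that from SL, when the other courses held 1.97 to 8.42 CPM. At days 2.5 and 3 the difference was -3.85 ± 0.48 for EB against Neural (adjusted p = 1.5e-06) and -2.89 ± 0.45 for EpiSC against Neural (adjusted p = 0.00026), and for EB against Neural at days 5 and 7 it was -3.10 ± 0.47 (adjusted p = 1.0e-05).

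Dhrs3, which turns retinal back to retinol and is itself induced by retinoic acid, was low in EBs early and high in the EpiSC course late. At days 1 to 2 the EB libraries held 0.837 to 4.17 CPM (median 2.90), the EpiSC libraries 7.02 to 15.3 CPM (median 11.2) and the Neural libraries 6.75 to 14.1 CPM (median 10.8). Neither monolayer course overlapped with EBs, and the differences were -2.02 ± 0.26 against Neural (adjusted p = 2.9e-06) and -1.94 ± 0.26 against EpiSC (adjusted p = 1.0e-05). Late, at days 5 and 7, the 3 EpiSC libraries held 13.2 CPM (2iL day 7), 19.4 and 19.5 CPM (SL days 5 and 7), the Neural libraries 1.55 to 3.75 CPM, and the EB libraries 3.32 to 4.90 CPM except for 13.1 CPM at day 5 from 2iL. EpiSC was above Neural by 2.89 ± 0.35 (adjusted p = 1.1e-06) and above EB, the value for EB against EpiSC being -1.87 ± 0.36 (adjusted p = 0.00069, up to 0.40 under 2 of 11 alternatives).

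The retinal dehydrogenases Aldh1a2 and Aldh1a3, which make retinoic acid, were scarce. Aldh1a2 never exceeded 5.40 CPM and Aldh1a3 never exceeded 2.48 CPM, and their medians over the 45 libraries were 0.613 and 0.156 CPM per kilobase. Aldh1a2 was highest in EBs at day 7, with 5.40 CPM from 2iL and 3.97 CPM from SL, after 0.276 and 0.163 CPM at day 5 in the same courses. EB against Neural at days 5 and 7 was 1.86 ± 0.58 (adjusted p = 0.010), a call that rested on day 7: without the day 7 libraries of either medium, among others, it was lost (4 of 11 alternatives, lowest value 0.95, adjusted p up to 0.25). The lower Aldh1a2 level of EBs at days 1 to 2 (-1.12 ± 0.38 against Neural, adjusted p = 0.026) was lost under 8 of 13 alternatives. Aldh1a3 was past the threshold in none of the 9 course comparisons.

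**Figure D2:**
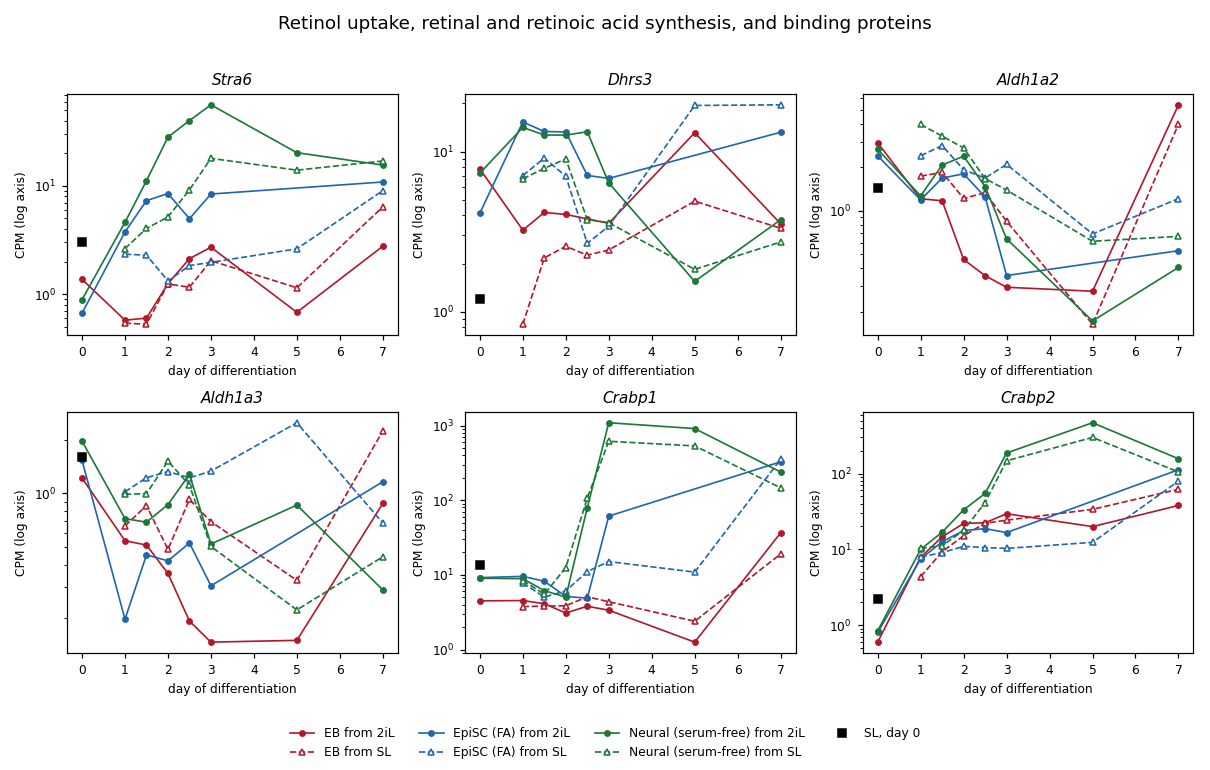
CPM on a log axis against day of differentiation for Stra6, Dhrs3, Aldh1a2, Aldh1a3, Crabp1 and Crabp2, 1 point per library, with colours, symbols and lines for course and medium as named in the key. Crabp1 reaches 1093 CPM at day 3 in the Neural course from 2iL, against 3.36 CPM in EBs.

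Crabp1, which holds retinoic acid in the cytoplasm, was at 4.49, 9.18 and 9.01 CPM in the day 0 libraries of the EB, EpiSC and Neural courses from 2iL and at 13.8 CPM in SL. At days 1 to 2 it held 3.08 to 4.53 CPM in EBs, 5.06 to 9.56 CPM in the EpiSC course and 5.03 to 12.5 CPM in the Neural course. EBs thus lay below both without overlap, as the 2iL library of the EB course already did at day 0. The values were -1.07 ± 0.69 against Neural (adjusted p = 0.25) and -0.81 ± 0.69 against EpiSC (adjusted p = 0.42), and both passed when only the libraries compared were fitted (adjusted p = 1e-04 and 0.0012). Larger differences were measured from day 2.5 on. In the Neural course it went from 5.03 CPM at day 2 to 79.4 CPM at day 2.5 and 1093 CPM at day 3 from 2iL, and from 12.5 to 107 and 617 CPM from SL. EBs held 3.80, 3.36, 5.09 and 4.37 CPM at days 2.5 and 3, and the EpiSC course 4.87 and 61.3 CPM from 2iL and 11.1 and 15.1 CPM from SL. The Neural libraries lay above all others, with -6.12 ± 0.93 for EB against Neural (adjusted p = 1.7e-05) and -4.33 ± 0.82 for EpiSC against Neural (adjusted p = 0.0012, lost in each medium alone with adjusted p up to 0.071).

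In the EpiSC course the Crabp1 level was high by day 7. It held 327 CPM from 2iL and 354 CPM from SL, after 10.9 CPM at day 5 from SL, when the Neural course held 239 and 147 CPM and EBs 36.6 and 19.0 CPM. At days 5 and 7 EB was below EpiSC by -3.82 ± 0.84 (adjusted p = 0.0024, up to 0.15 under 2 of 11 alternatives) and below Neural by -6.19 ± 1.01 (adjusted p = 2.5e-05), and the value for EpiSC against Neural was -2.38 ± 1.11 (adjusted p = 0.098). This last value rested on day 5, since at day 7 the EpiSC level was above the Neural level from both media. It ran from -4.12 to -0.05 over 11 alternatives and passed under 3 of them, by DESeq2 and without the day 7 libraries of either medium.

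Crabp2, which carries retinoic acid to the receptors, rose in every course. In 2iL it went from 0.595, 0.798 and 0.840 CPM at day 0 to 7.85, 7.45 and 9.98 CPM at day 1 (3.62 ± 0.85, adjusted p = 0.0047). In the Neural course it went on to 187 CPM at day 3 and 469 CPM at day 5 from 2iL, and to 147 and 300 CPM from SL. EBs remained between 19.9 and 61.9 CPM from day 2.5 on. At days 2.5 and 3 the EpiSC course held 18.7 and 16.6 CPM from 2iL and 10.5 and 10.3 CPM from SL, below all EB libraries of that stage. EpiSC against Neural was then -2.83 ± 0.50 (adjusted p = 0.00067), and EB against EpiSC 0.77 ± 0.48 (adjusted p = 0.23). By day 7 the EpiSC course was at 112 CPM (2iL) and 79.3 CPM (SL). EB against Neural was -0.54 ± 0.39 at days 1 to 2 (adjusted p = 0.31, but 0.0039 with only the libraries compared), -2.06 ± 0.47 at days 2.5 and 3 (adjusted p = 0.0013, 0.059 in the SL libraries alone) and -2.86 ± 0.50 at days 5 and 7 (adjusted p = 6.0e-05). On the per-length scale the highest Crabp1 library stood at 1360 CPM per kilobase and the highest Crabp2 library at 354.

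Cyp26a1, the enzyme that clears retinoic acid and a direct target of its receptors, did not follow Stra8 or Rarb. Its level differed with the medium of origin. At day 0 it was at or below 0.744 CPM in all 4 libraries. At day 1 it held 0.423, 1.45 and 2.03 CPM in the EB, EpiSC and Neural courses from 2iL and 11.1, 17.5 and 6.70 CPM in the same courses from SL, and at day 2 the values were 2.80, 3.71 and 3.52 CPM against 39.9, 32.7 and 8.72 CPM. No 2iL library of days 1 to 2 reached the lowest SL library. The difference between media was -2.78 ± 0.43 at days 1 to 2 (adjusted p = 2.3e-05), -1.82 ± 0.47 at days 2.5 and 3 (adjusted p = 0.0093, up to 0.14 under 2 of 8 alternatives) and -0.25 ± 0.46 at days 5 and 7 (adjusted p = 0.83).

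For EB against Neural at days 1 to 2 the Cyp26a1 value over both media was 0.11 ± 0.55, but the media went opposite ways. From 2iL the EB level was below the Neural level on 3 of 3 days, at 0.423 against 2.03 CPM on day 1 (-1.88 ± 0.51 in the 2iL libraries alone, adjusted p = 0.025), and from SL it was above on 3 of 3 days, at 11.1 against 6.70 CPM (1.48 ± 0.42 in the SL libraries alone, adjusted p = 0.028). The difference between these effects was not tested.

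Over both media Cyp26a1 differed past the threshold between courses in 1 of 9 comparisons. At days 2.5 and 3 the EpiSC course held 17.6 and 70.4 CPM from 2iL and 47.7 and 71.7 CPM from SL, and the Neural course 3.38 and 7.93 CPM from 2iL and 14.7 and 19.6 CPM from SL (2.31 ± 0.60, adjusted p = 0.012, lost without day 3 from 2iL or in the SL libraries alone, adjusted p up to 0.076). EBs held 5.25 and 7.16 CPM from 2iL and 42.0 and 66.9 CPM from SL, so that no 2iL library of the EB course reached the SL libraries. At day 5 the EpiSC course from SL held the highest level of the series, 79.0 CPM, and EBs held 35.1 CPM (2iL) and 48.7 CPM (SL). By day 7 the EB libraries were at 73.6 and 70.2 CPM, while the EpiSC libraries were at 14.3 and 15.4 CPM. EB against EpiSC at days 5 and 7 was 1.17 ± 0.66 (adjusted p = 0.23).

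Beside the higher Cyp26a1 level of SL-derived cells, markers of extraembryonic endoderm were higher there too. Summed over the 7 markers, they stood at 9.66 to 65.5 CPM in the 9 libraries from 2iL at days 1 to 2 and at 181 to 426 CPM in the 9 from SL, and all 7 were lower in 2iL at days 1 to 2 and at days 2.5 and 3. At day 0 the sum was 158 CPM in SL and 2.33 to 5.35 CPM in 2iL, when Cyp26a1 was at 0.603 CPM in SL and at 0.200 to 0.744 CPM in 2iL. The part of these cells in the Cyp26a1 level was not tested.

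**Figure D3:**
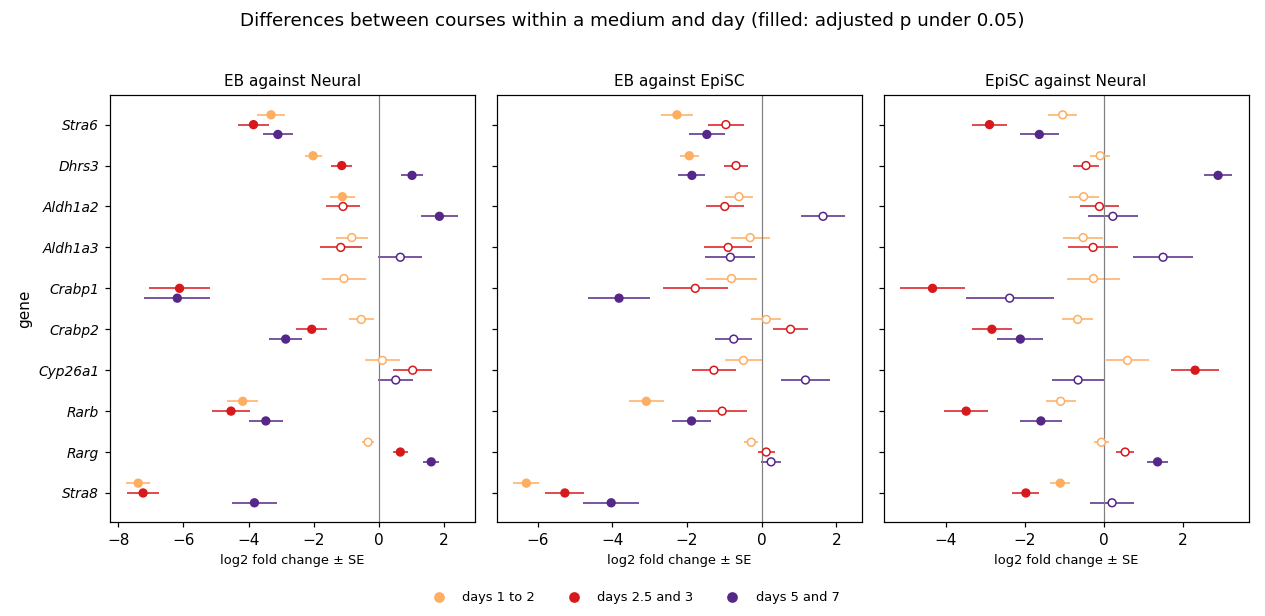
Log2 fold changes with standard errors of the 10 genes between courses at 3 stages, for EB against Neural, EB against EpiSC and EpiSC against Neural, where values below 0 mean lower in the first course named. Filled points passed an adjusted p of 0.05. Stra8, at -7.39 for EB against Neural at days 1 to 2, lies farthest from 0.

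Counted over the stages, 7 of the 10 genes passed for EB against Neural at days 2.5 and 3 (39.7% of all genes) and 8 at days 5 and 7 (46.8%). For EB against EpiSC the counts were 1 (29.1%) and 5 (19.8%). For EpiSC against Neural they were 1 at days 1 to 2 (2.13%), 6 at days 2.5 and 3 (13.3%) and 5 at days 5 and 7 (36.0%). Few genes of any kind thus passed between the 2 monolayer courses at days 1 to 2, and Stra8 was the only one of the 10 among these. At an unadjusted p under 0.05 there were 2673 of 16467 genes and 3 of the 10. In matched libraries of that stage Neural was higher in 6 of 6 pairs for Stra8, Rarb, Stra6, Crabp2 and Aldh1a2. EpiSC was higher in 5 of 6 pairs for Rarg and Dhrs3.

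The difference between EB and Neural itself moved with time in 6 of the 10 genes, where 28.6% of all genes did. The EB level moved up relative to the Neural level in Dhrs3 (a shift of 3.04 ± 0.43, adjusted p = 1.4e-05), Aldh1a2 (2.98 ± 0.69, adjusted p = 0.0022) and Rarg (1.95 ± 0.31, adjusted p = 5.6e-05), and the gap in Stra8 narrowed as the Neural level fell (3.57 ± 1.17, adjusted p = 0.024). The EB level fell further behind in Crabp1 (-5.12 ± 1.21, adjusted p = 0.0025) and Crabp2 (-2.32 ± 0.63, adjusted p = 0.0071). In Rarb and Stra6 the shift was 0.71 ± 0.68 and 0.21 ± 0.61, and neither passed.

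Within a course, from days 1 to 2 to days 5 and 7, 8 of the 10 genes changed in EBs (65.8% of all genes did), 5 in the EpiSC course (59.4%) and all 10 in the Neural course (69.9%). Cyp26a1, Crabp1 and Crabp2 rose in the EB and Neural courses, by 3.54 ± 0.68, 1.83 ± 0.77 and 1.55 ± 0.46 in EBs and by 2.77 ± 0.62, 5.71 ± 0.82 and 3.82 ± 0.47 in the Neural course. The Cyp26a1 value of EBs averages 2 unlike media. From 2iL EBs held 0.423 to 2.80 CPM at days 1 to 2, then 35.1 and 73.6 CPM at days 5 and 7. From SL they held 11.1 to 39.9 CPM, then 48.7 and 70.2 CPM, a smaller rise. Dhrs3 rose in EBs (1.01 ± 0.30) and in the EpiSC course (0.87 ± 0.34) and fell in the Neural course (-2.16 ± 0.34). The rise in EBs was lost without day 5 from 2iL (adjusted p = 0.11), and that in the EpiSC course under 4 of 15 alternatives. The rise of Crabp1 in EBs was lost under 8 of 15 alternatives, among them leaving out day 7 from 2iL. Against day 0 in 2iL, 7 of the 10 genes had changed by days 5 and 7 (64.7% of all genes), with Stra8 at -7.99 ± 1.34, Crabp2 at 7.21 ± 0.88 and Cyp26a1 at 6.46 ± 1.13.

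The starting medium set 6 of the 10 genes apart at day 0, where 30.8% of all genes passed and SL had 1 library, so the spread came from 2iL alone. Rarb was higher in 2iL by 3.48 ± 0.57 (adjusted p = 0.0023), Dhrs3 by 2.48 ± 0.51 (adjusted p = 0.0066; 7.79, 4.12 and 7.33 CPM against 1.21 CPM) and Stra8 by 0.79 ± 0.23 (adjusted p = 0.029). Rarg was lower by -1.33 ± 0.27 (adjusted p = 0.0062; the SL library held 158 CPM), and Stra6 (-1.52 ± 0.49) and Crabp2 (-1.51 ± 0.50) were lower as well. With the spread taken over all 45 libraries none of the 6 passed.

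At days 1 to 2 the medium of origin still separated 7 of the 10 genes (44.3% of all genes), with Rarb (1.21 ± 0.26), Stra6 (1.32 ± 0.28), Dhrs3 (0.92 ± 0.17) and Crabp2 (0.55 ± 0.15) higher from 2iL and Cyp26a1, Aldh1a2 (-0.73 ± 0.23) and Aldh1a3 (-0.85 ± 0.32) lower. Without the course-and-day block 3 of the 7 passed, namely Cyp26a1, Rarb and Stra6. Stra6 was thus on the other side of its day 0 difference. At days 2.5 and 3 there were 5 (18.4%), Stra6 and Dhrs3 higher and Cyp26a1, Aldh1a2 and Aldh1a3 lower, and without the block 0. For days 5 and 7 edgeR called 0 of 10 (3.31% of all genes), DESeq2 0, and 0 had an unadjusted p under 0.05. Whether EB and Neural differed by another amount from 2iL than from SL at days 5 and 7 gave 0 of 10 by edgeR, where the background was 0.00% of 16028 genes (917 at an unadjusted p under 0.05, 18 by DESeq2), 0 by DESeq2, and 1 at an unadjusted p under 0.05 (Rarg, 0.042).

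**Figure D4:**
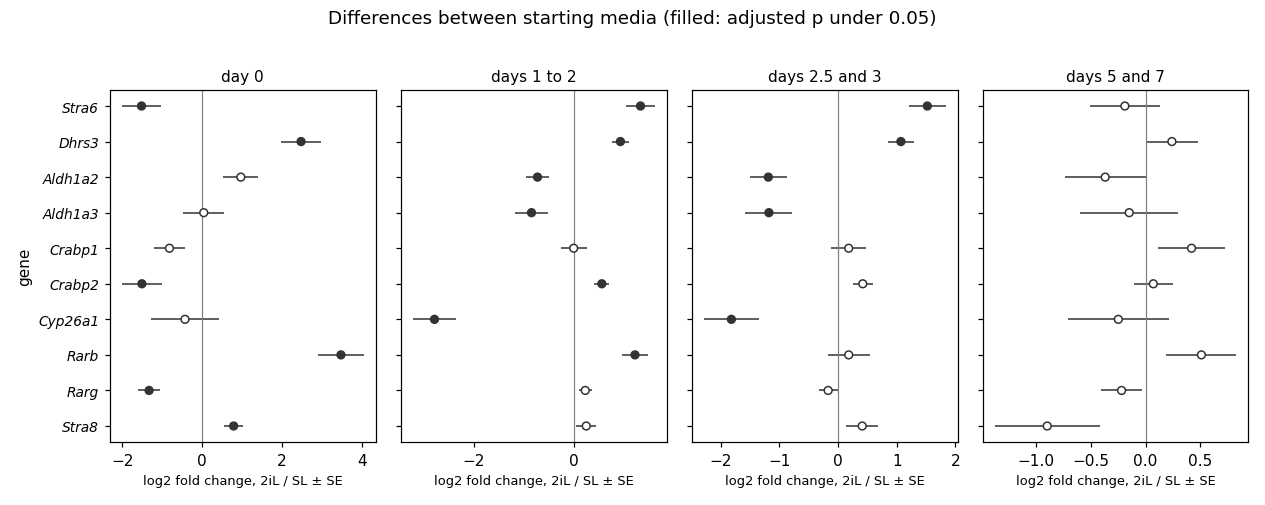
Log2 fold changes with standard errors of the 10 genes between 2iL and SL at day 0 and between cells from 2iL and from SL at 3 later stages, with values above 0 meaning higher from 2iL. Filled points passed an adjusted p of 0.05. The values of days 5 and 7 lie between -0.90 and 0.51.

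Most other genes of a list known to respond to retinoic acid were lower in EBs than in the Neural course as well. Of 21 such genes, among them the 10 Hox genes of groups 1 to 5 in the Hoxa and Hoxb clusters, 16 were lower in EBs than in the Neural course at days 1 to 2 and 0 higher, with a median of -2.40 against 0.01 over all genes, of which 14.3% were lower. However, 13 of the 21 were under 1 CPM in every EB library of this stage, against 4 in the Neural course and 2 in the EpiSC course. Genes so low in EBs could hardly come out higher there, so the absence of higher genes says little. Hoxa5 (-5.83), Hoxa3 (-5.22) and Hoxa2 (-4.76), which pattern the hindbrain and neck, had the largest differences, and Tshz1, at -0.92, did not pass. Hoxa5 held 0 to 0.513 CPM in the 6 EB libraries (median 0.0733) and 1.65 CPM and more in the 6 Neural libraries (median 7.22). Against the EpiSC course 14 were lower and 0 higher (median -2.16, with 11.4% of all genes lower). Between EpiSC and Neural edgeR called 0 of 21 (2.13% of all genes), DESeq2 called 1, and 4 had an unadjusted p under 0.05.

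At days 2.5 and 3, 18 of the 21 responsive genes were lower in EBs than in the Neural course, with a median of -5.35, and 12 were lower than in the EpiSC course (39.7% and 29.1% of all genes passed in either direction). In every EB library of this stage 12 of the 21 were under 1 CPM, against 2 in the Neural course and 3 in the EpiSC course. Hoxa2 was at 0 in all 4 EB libraries and at 5.99 to 16.7 CPM in the 4 Neural libraries, at least 89.0-fold higher when 3 counts per EB library are taken as the floor, and the median of the list is -5.35 with Hoxa2 at that bound. Of the others, Hoxb2 was at 0.0322 to 0.116 CPM against 13.5 to 39.3 CPM. At this stage 9 of the 21 were lower in the EpiSC than in the Neural course (13.3% of all genes passed in either direction), Nr2f1 (-4.14), Nr2f2 (-3.21) and Meis1 (-3.02) by the most. That count was 5 without day 3 from 2iL and 2 in the 2iL libraries alone. At days 5 and 7, 14 of 21 were lower in EBs than in the Neural course (46.8% of all genes passed in either direction), among them Hoxa2 (-6.59) and Hoxa3 (-5.03), and Tgm2 (-0.58) did not pass. Hoxa3 held 2.36 to 6.02 CPM in the Neural libraries of days 5 and 7 and 0.0502 to 0.198 CPM in the EBs. Against the EpiSC course 11 were lower in EBs and 2 higher at that stage (19.8% of all genes passed in either direction). With only the libraries compared these were 4 and 0. Within EBs 10 of the 21 rose from days 1 to 2 to days 5 and 7 and 0 fell (65.8% of all genes changed). Without day 7 from 2iL 6 rose and 1 fell, and without day 7 from SL 8 rose. Without day 5 from 2iL or from SL 15 and 13 rose, and with only the libraries compared 7 of 13 tested. The sum of the 21 ran from 58.4 to 92.1 CPM in early EBs and from 123 to 242 CPM in late EBs.

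At day 0, 6 of the 15 responsive genes tested were higher in 2iL than in SL, and 0 were lower, with a median of 1.38, where 13.5% of all genes were higher and 30.8% passed in either direction. SL had 1 library here, and with the spread taken over all 45 libraries edgeR called 0 of 21 (1 at an unadjusted p under 0.05). Hoxa3 held 1.75, 2.00 and 2.24 CPM in 2iL and 0 in SL, at least 12.1-fold higher in 2iL by a floor of 3 counts, and Meis2 was higher by 4.18, while Hoxa4 (0.90) did not pass. Hoxa3 had no count in SL and so entered the test through its 2iL libraries alone. The absence of lower genes depended on the setting. Some of the list passed as lower in 2iL without the filter on low counts, or without the Neural library of day 0. Cdx1 stood at 71.8, 43.8 and 67.6 CPM in the 3 libraries of 2iL at day 0 and at or below 1.44 CPM in every library of days 1 to 2.

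**Figure D5:**
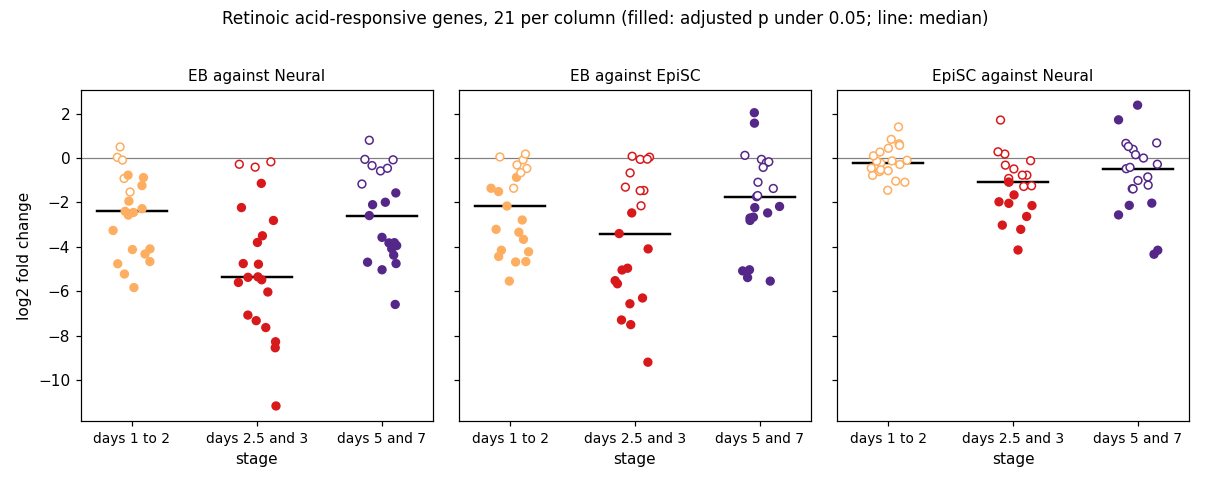
Log2 fold changes of 21 retinoic acid-responsive genes between courses at 3 stages, 1 point per gene, filled where the adjusted p was under 0.05 and with the median as a black line. The medians for EB against Neural are -2.40, -5.35 and -2.59, and that for EpiSC against Neural at days 1 to 2 is -0.23.

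Of the other receptors, Rxra, the usual partner of the Rar proteins, was lower in EBs than in the Neural course at all 3 stages (-0.84, -1.29 and -0.60), and Rara, which held 19.7 to 72.9 CPM in all libraries of the 3 courses, was lower by -0.31 at days 1 to 2. Of the other retinal dehydrogenases, Aldh1a1 was lower in EBs than in the Neural course at all 3 stages. At days 1 to 2 it was under 1 CPM in every library of the 3 courses, so the early call rests on low counts. It reached 1.49 to 5.72 CPM in the Neural libraries of days 5 and 7 (-5.77), while EBs held 0 to 0.198 CPM. Cyp26b1, a second degrading enzyme, held 22.5 to 35.6 CPM in those Neural libraries, 0.414 to 3.78 CPM in the EpiSC course and 0.151 to 1.89 CPM in EBs (-5.99 for EB against Neural, -3.99 for EpiSC against Neural). Cyp26a1 had no course difference past the threshold at that stage.

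Among genes of retinoid transport and storage, Ttr (2.39) and Stra6l (1.57) were higher in EBs than in the Neural course at days 1 to 2. For this comparison 17.2% of all genes were higher and 14.3% lower, against which the next counts stand. Of 8 tested retinol and retinal oxidoreductases 2 were higher, Rdh10 (0.74) and Adh5 (0.18), and 0 lower, with Rdh11 at -0.02. Of 5 tested meiotic genes, Rec8 (-0.80) and Dazl (-0.67) were lower, by far less than Stra8, and Sycp3 stood at 0.54 without passing. Of 6 coregulators, Nrip1, a corepressor induced by retinoic acid, was lower by -1.14, and Ncor1 (0.19) and Ncoa1 (0.22) were higher.

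Over the 45 libraries, which share days, media and courses, the 10 genes formed no single group. As a description, Pearson's r of log2(CPM + 1) was 0.76 for Stra6 with Crabp1, 0.75 for Crabp1 with Crabp2 and 0.74 for Rarb with Stra6, while it was -0.72 for Rarg with Crabp1 and -0.41 for Cyp26a1 with Stra8. By the same measure, over 12557 genes that reached 5 CPM in 3 libraries, the pattern most like that of Stra8 was Clgn (0.885), then Zfyve28 (0.881) and Halr1 (0.872). For Cyp26a1 these were Dgkk (0.936), Mum1l1 (0.912) and Foxa2 (0.892), for Rarb Lonrf2 (0.864), Meis2 (0.843) and Bmi1 (0.842), and for Rarg Jarid2 (0.940), Ydjc (0.919) and Gtpbp3 (0.919). Stra6 was most like Fhod3 (0.864) and Pax6 (0.860), Crabp1 most like Sdk2 (0.938), Crabp2 most like Adgrv1 (0.913) and Plch1 (0.913), and Dhrs3 less like any gene, with Bscl2 (0.762) first.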

How the data were processed

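RNA was depleted of ribosomal RNA and made into directional libraries, 1 for each of 45 combinations of medium, course and day. The authors trimmed the reads with TrimGalore, aligned them with TopHat2 to GRCm38/mm10, allowing 1 mismatch, with Ensembl release 82 genes, and deposited strand-specific featureCounts counts per gene, which are not normalized. Depth and the CPM of 3 counts stand in the report. Members were matched by symbol, and positions, exon lengths and overlaps came from GENCODE release M21 on GRCm38. CPM are plain, over all counts of a library, and 435 rows with a tRNA name and no symbol (at most 0.0014% of counts) were left out of the tests.

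The 20 comparisons were tested in R 4.3.3 with edgeR 4.0.16 quasi-likelihood F tests on the counts, with TMM factors, filterByExpr and Benjamini-Hochberg adjustment over all genes tested (threshold 0.05). Days were grouped into days 1 to 2, days 2.5 and 3, and days 5 and 7. Courses were compared within medium and day, media within course and day, and changes in time with course, or course and medium, as a term. These blocks are the labels' own medium, course and day, and no label pairs cultures beyond them. Log2 fold changes are given ± SE. DESeq2 1.42.0, median-of-ratios factors, no filter, no replicate block, fewer libraries and leaving libraries out were the alternatives, and fits in each medium alone were added after seeing the data. The scripts were tested on simulated data.

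The 10 genes, the lists and the rule for named genes (all 10, and of each list the largest differences past the threshold with 1 that did not pass) were chosen with earlier results of these data known. Protein sequences were not used here, and promoters of Aldh1a3 and Crabp2 were not analysed here. The result of 1 gene of the list of retinoid transport and storage is not reported here.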

Additional observations from a re-analysis of the deposited data

Results flagged for a closer look

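In 6 genes the difference between EB and Neural at days 5 and 7 was not the one at days 1 to 2, by the edgeR test of the difference itself. On the log2 scale the shifts, late minus early, were 2.98 for Aldh1a2, 1.95 for Rarg, 3.57 for Stra8, -5.12 for Crabp1, -2.32 for Crabp2 and 3.04 for Dhrs3, and 28.6% of all genes tested had such a shift. In EBs at days 5 and 7 Stra8 was down to 1 read at its lowest, on day 5 from 2iL, and its shift was lost under 6 of 17 alternatives (adjusted p up to 0.38). Fitted in the SL libraries alone, 2 of the 10 genes passed.

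In 2 genes the courses were ordered one way on 3 of 3 days from 2iL and the other way on 3 of 3 days from SL at days 1 to 2, and the difference between media was not tested. For Cyp26a1, EB against Neural was -1.88 in the 2iL libraries (adjusted p = 0.025) and 1.48 in the SL libraries (adjusted p = 0.028). For Crabp1, EpiSC against Neural was 0.00 in the 2iL libraries and -0.52 in the SL libraries, neither past the threshold.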

How the results depend on the processing

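Of 200 pairs of gene and comparison, 98 were past the threshold, 45 of these under every alternative and 53 not, and 0 of the 98 reversed. Another 41 were past it under at least 1 alternative. Pairs not past the threshold were not checked for a change of direction. Among them, Cyp26a1 for EB against Neural at days 1 to 2 stood at 0.11 over both media. It passed as lower in the 2iL libraries alone (-1.88) and as higher in the SL libraries alone (1.48). The counts below are of the 10 genes. With only the libraries compared they were 4 for 2iL day 1, 4 for 2iL days 5 and 7, 9 for EB against Neural at days 1 to 2, 3 for EpiSC against Neural at days 1 to 2, 4 and 1 for EB against EpiSC at days 2.5 and 3 and at days 5 and 7, and 2 for EpiSC against Neural at days 5 and 7. Without the replicate block they were 0 for EpiSC against Neural at days 1 to 2, 3 at days 5 and 7, 2 for EB against EpiSC at days 2.5 and 3, and 3 and 0 for 2iL against SL origin at days 1 to 2 and at days 2.5 and 3, and the block moved no other count by over 1.5 times. At day 0 the spread over all 45 libraries gave 0. In the 2iL libraries alone they were 0 and 2 for EpiSC against Neural at days 1 to 2 and 5 and 7 and 3 and 2 for EB against EpiSC at days 2.5 and 3 and 5 and 7, and in the SL libraries alone 0 for EpiSC against Neural at days 1 to 2, 3 for EB against EpiSC at days 5 and 7 and 2 for the shift of EB minus Neural. The fits of each medium alone were chosen after seeing the data. Leaving out 1 course, day or library gave 0 to 4 for 2iL day 1, 3 to 8 for 2iL days 5 and 7, 0 to 1 and 2 to 6 for EpiSC against Neural at days 1 to 2 and 5 and 7, 3 to 6 for EB against EpiSC at days 5 and 7, 3 to 3 and 0 to 3 for 2iL against SL origin at days 2.5 and 3 and 5 and 7, 3 to 5 at day 0, and 5 to 9 for EBs over time, and the 2iL-minus-SL comparison at days 5 and 7 could not be fitted so. Where fewer libraries entered, fewer residual degrees of freedom were left, and otherwise the cause was not tested. Over all genes, the counts that moved by over 1.5 times are given at the setting that moved them most. They were, for EpiSC against Neural at days 1 to 2, 350 (9 without day 2 from 2iL, 989 with only the libraries compared). With only the libraries compared, days 5 and 7 gave 4446 for 7713 (EB against Neural), 406 for 3261 (EB against EpiSC), 2477 for 5925 (EpiSC against Neural) and 38 for 561 (2iL against SL origin, 873 by DESeq2). In the SL libraries alone there were 2991 for 5199 (EB against Neural, days 1 to 2), 2203 for 4785 (EB against EpiSC, days 2.5 and 3), 620 for 2184 (EpiSC against Neural, days 2.5 and 3) and 2142 for 4716 (the shift). Without the block there were 2390 for 4169 (EB against EpiSC, days 1 to 2) and 4920 for 7502 and 957 for 3118 (2iL against SL origin, days 1 to 2 and days 2.5 and 3). The count was 1884 for 4663 without EpiSC (2iL day 1), 3046 for 4599 with the spread over all 45 libraries (day 0) and 18 by DESeq2 for 0 (2iL-minus-SL comparison). Levels under 3 counts, as for Stra8 in late EBs, are not resolved at this depth.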
